A study of Mus musculus with 6 samples.

Results

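The small leucine-rich proteoglycans are secreted matrix proteins, and 10 of their genes were followed here in 2T3 mouse pre-osteoblasts. The genes are Omd, Ogn, Aspn, Prelp, Dcn, Bgn, Lum, Fmod, Kera and Podn. Every probe set that the platform's probe table maps to one of these symbols was kept, giving 21 of the 45101 probe sets, for these 10 of 18193 named genes on the array. The study compared cells held for 3 days in a rotating wall vessel, called rotated here, with cells in static culture. There were 3 rotated and 3 static samples, with 1 Affymetrix array each, of unmodified 2T3 cells at passage 8 to 10. 2T3 is a clonal calvarial line immortalised with a viral T antigen, so it stands for 1 clone. The rotating wall vessel turns a fluid-filled chamber about a horizontal axis so that cells stay in free fall, a model of microgravity used on the ground. For static 2 and static 3 the source field names simulated microgravity while the title names static culture, and the titles were used. The labels do not say that the samples were separate cultures, so p-values measure the spread between samples only, which may be technical. Titles of the rotated samples carry only the letter R, read as rotated because the design text has no other condition.

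Small leucine-rich proteoglycans have a core of leucine-rich repeats that curves around and binds collagen fibrils. Most carry chondroitin, dermatan or keratan sulfate chains. They set the spacing and diameter of collagen fibrils, and several bind growth factors of the TGF-beta and BMP group. In bone they are made by osteoblasts and their precursors, and biglycan-deficient mice have low bone mass. By sequence, Dcn, Bgn and Aspn form class I, Lum, Fmod, Prelp, Kera and Omd class II, Ogn belongs to class III, and Podn to class V. In the mouse many members lie side by side: Aspn, Omd and Ogn on chromosome 13, Prelp and Fmod on chromosome 1, and Dcn, Lum and Kera on chromosome 10.

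Most of the family stood lower in rotated cells, and the neighbours on chromosome 13 stood lowest. Of the 21 probe sets, 20 had a lower mean in rotated than in static arrays, against 12808 of all 27022 tested probe sets. With median centring 17 of the 21 were lower, since the Bgn probe sets turned. The median log2 difference was -1.21, against a median of 0.03 over all tested probe sets. One probe set, that of Kera, was dimmer than the filter and was not tested. Among the 20 tested, 12 were lower by 1 log2 unit or more, a difference reached by 2.45% of all tested probe sets. These 12 belong to 5 genes: Omd, Aspn, Ogn, Prelp and Fmod. With the actin control ratio as a covariate 6 reached that size, and with arrays weighted by quality 8. Bgn, Dcn, Lum and Podn differed by less.

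No member probe set passed in the fit without pairing. With limma, 0 of the 20 tested member probe sets and 0% of all tested probe sets had an adjusted p under 0.05. At an unadjusted p under 0.05 it found 14 of the 20 lower and 0 higher, where the shares over all tested probe sets were 3.9% lower and 4.34% higher. The 14 belong to Omd, Aspn, Ogn, Prelp, Fmod, Lum and Dcn, and probe sets of the same gene are not independent. The same-numbered rotated and static arrays deviated together, so the fit was repeated with the replicate number as a block. No label gives this pairing. It was read from these same data, which limits what the block's p-values can show. With the block 2 member probe sets passed, both lower, and they were the only calls among all probe sets (0.0074% of those tested). They are 1 probe set each of Ogn and Aspn. With the actin control ratio as a covariate, described further below, 8 member probe sets instead of 14 were lower at an unadjusted p under 0.05. Over all 27022 tested probe sets the lower count went from 1055 to 381 with this covariate.

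**Figure D1:**
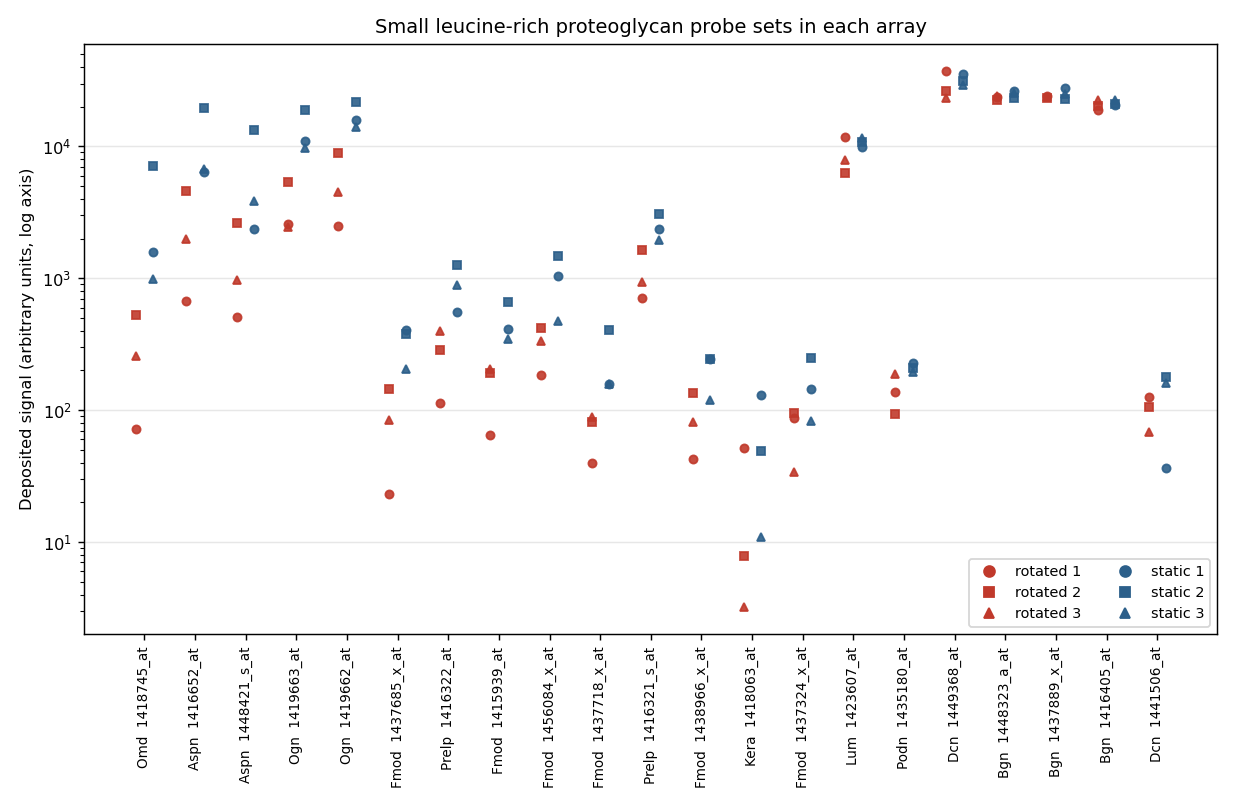
Deposited signal (log axis, arbitrary units) of the 21 probe sets in each array, with rotated arrays in red and static arrays in blue and the symbol giving the replicate number. Omd, Aspn and Ogn stand far lower in the rotated arrays, while Bgn and the bright Dcn probe set lie close together in both groups.

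The values of every array were examined before the differences. Brightness depends on the probes as well as on the transcript, so levels are compared within a probe set. The only exceptions are the summed signals of marker and collagen lists below. Omd (osteomodulin, probe set 1418745_at) encodes an acidic keratan sulfate proteoglycan of mineralising bone that binds hydroxyapatite. Its deposited signal was 72.2, 527.1 and 257.8 in rotated 1, 2 and 3, against 1592.1, 7113.7 and 993.3 in static 1, 2 and 3. All rotated values lay below all static ones. On the normalized log2 scale it averaged 7.86 ± 1.38 in rotated and 11.13 ± 1.46 in static arrays (SD, n = 3 each). The difference of -3.27 ± 0.78 (SE) corresponds to a 9.65-fold lower level, with an adjusted p of 0.564 in limma. Only 0.0037% of tested probe sets had a difference this low or lower, which is Omd itself.

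Aspn (asporin) encodes a relative of decorin with a run of aspartate residues that binds collagen and calcium and holds back TGF-beta and BMP2. The first probe set, 1416652_at, gave 667.8, 4614.6 and 1978.4 in rotated 1, 2 and 3, against 6357.3, 19689.2 and 6688.3 in static 1, 2 and 3. The groups did not overlap, and the difference was -2.42 ± 0.62 (log2, SE), or 5.34-fold lower, with an adjusted p of 0.587 in limma. The second, 1448421_s_at, gave 506.0, 2612.8 and 971.4 in the rotated arrays, against 2370.3, 13296.7 and 3833.1 in the static ones. Here rotated 2 lay above static 1, so the groups overlapped. Within same-numbered pairs, however, the rotated signal was 21.3%, 19.6% and 25.3% of the static one. This probe set differed by -2.15, with an SE of 0.64 without and 0.14 with the replicate block, and its adjusted p in limma was 0.592 without and 0.0251 with the block.

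Ogn (osteoglycin, also called mimecan) encodes a small proteoglycan that regulates collagen fibril assembly and is also released from bone into the circulation. Probe set 1419663_at read 2578.3, 5361.8 and 2434.0 in rotated 1, 2 and 3, against 11025.9, 18865.5 and 9732.9 in static 1, 2 and 3. The rotated signal was 23.4%, 28.4% and 25% of the static signal in the 3 pairs, nearly the same fraction each time. The difference of -2.09 amounts to a 4.25-fold lower level, and its SE was 0.34 without and 0.13 with the replicate block. The adjusted p in limma was 0.316 without the block, the smallest among the members, and 0.0251 with it. The other probe set, 1419662_at, read 2496.6, 8900.7 and 4494.4 in rotated arrays, against 15729.3, 21613.2 and 14139.6 in static arrays. Its pairs stood at 15.9%, 41.2% and 31.8%, a wider spread, and the difference of -1.99 ± 0.38 (SE) did not pass with the block (adjusted p 0.133 in limma). Both probe sets of Ogn had rotated values below all static values.

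**Figure D2:**
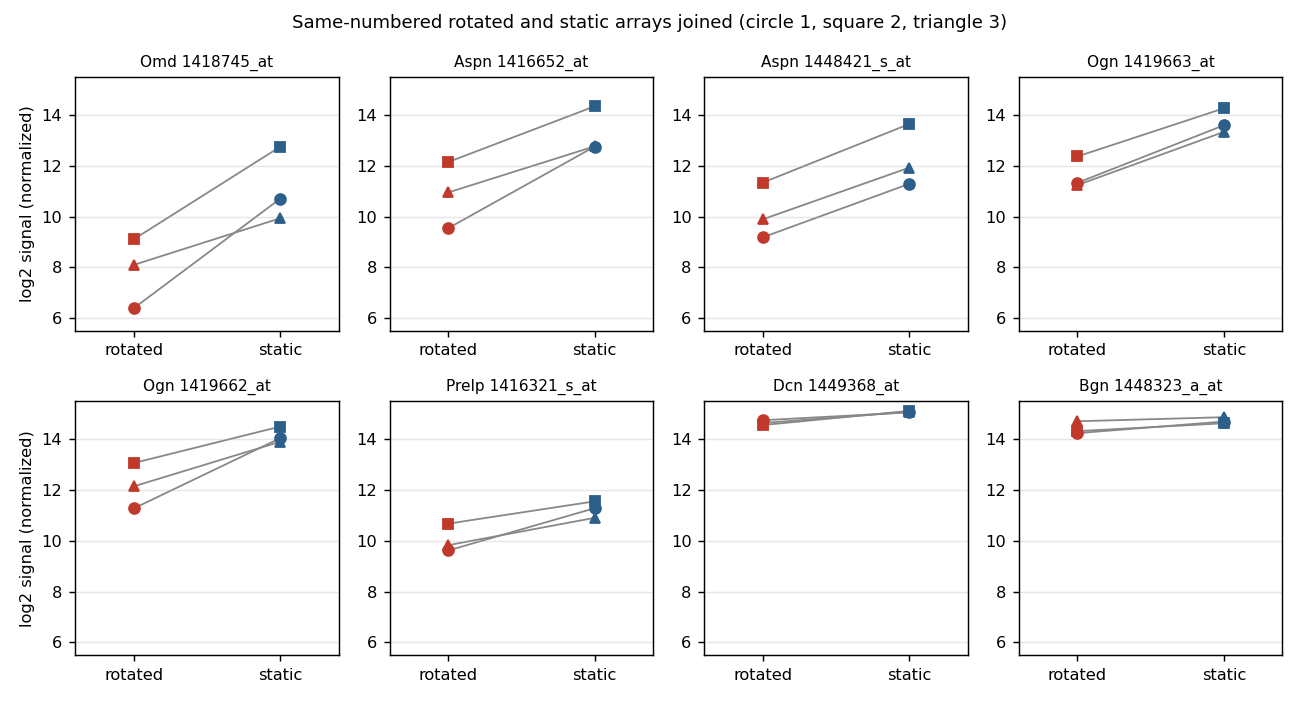
Normalized log2 signal of 8 probe sets, with rotated arrays left, static arrays right, and lines joining arrays of the same replicate number. The lines of Aspn 1448421_s_at and Ogn 1419663_at run nearly parallel, with differences of -2.11, -2.31 and -2.04 and of -2.27, -1.90 and -2.10, while those of Omd span -4.32 to -1.84.

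The 20 tested probe sets were all read in the same 3 same-numbered pairs of arrays, so their directions are not independent observations. On the normalized scale all 3 pairs were lower in the rotated array for 19 of the 20, compared with 20.1% of all tested probe sets. The exception was Dcn 1441506_at. The 19 include the 3 Bgn probe sets, whose direction turned with median centring. On the deposited signals without normalization, all 3 pairs were lower for 16 of the 20, and the share over all probe sets was not taken there. For Aspn, Omd and Ogn, replicate 2 carried the highest level within both groups. Their 5 probe sets averaged -3.38, -1.31 and -2.46 in rotated 1, 2 and 3, against -0.44, 0.99 and -0.55 in static 1, 2 and 3, as log2 deviations from each probe set's static mean. The lowest rotated array was thus rotated 1, and the highest static array was static 2. Without rotated 1 the difference of Omd was -2.53, that of Aspn 1416652_at -1.75, that of Aspn 1448421_s_at -1.68 and that of Ogn 1419663_at -1.93. Without static 2 they were -2.46, -1.89, -1.47 and -1.82.

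**Figure D3:**
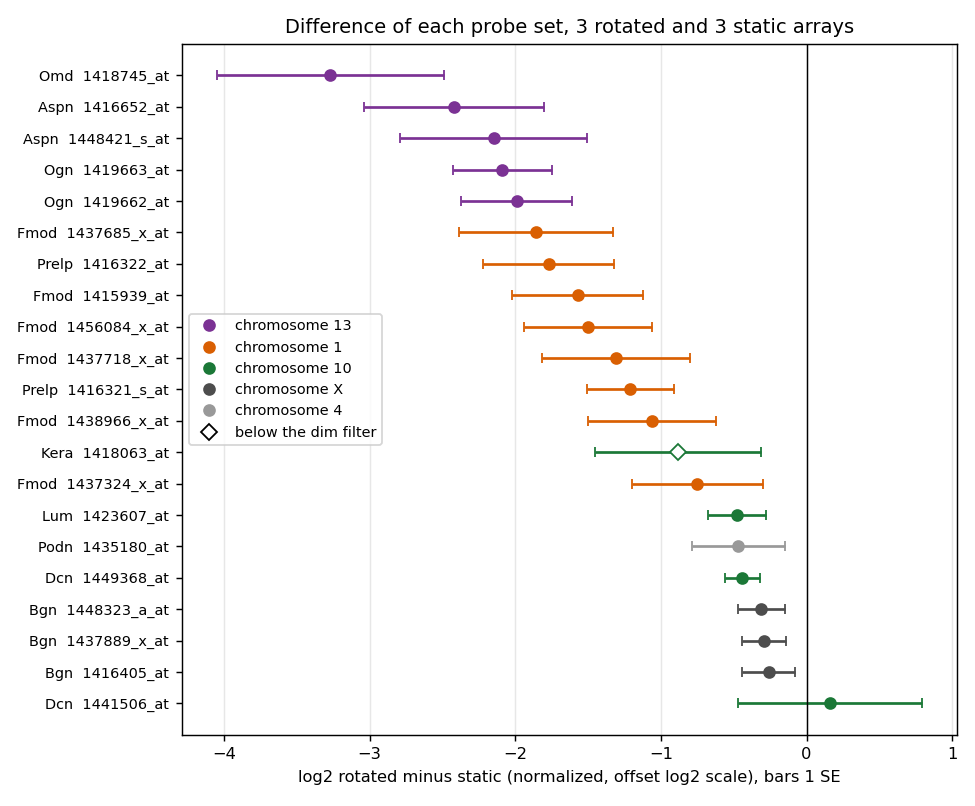
Log2 difference, rotated minus static, of the 21 probe sets with bars of 1 SE, coloured by chromosome; the open symbol marks Kera, below the filter on dim probe sets. The 5 probe sets on chromosome 13 lie between -3.27 and -1.99, the 8 on chromosome 1 between -1.86 and -0.75, and the others above -1.

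The sequences just upstream of the chromosome 13 genes are shown because these genes differed most and in the same direction, with Bgn, which differed little, beside them. They are the 250 bases before the annotated start, 5′ to 3′, from RefSeq on build GRCm38.p6, whose table held an entry for 8 of the 10 members. All 4 lie on the plus strand. Capitals mark every match, on either strand, to 6 motifs: the TATA box TATAAA, the E-box CANNTG, the AP-1 site TGANTCA, the RUNX site ACCACA, the TEAD site GGAATG and the SMAD box CAGAC.
Omd, chr13:49582212-49582461: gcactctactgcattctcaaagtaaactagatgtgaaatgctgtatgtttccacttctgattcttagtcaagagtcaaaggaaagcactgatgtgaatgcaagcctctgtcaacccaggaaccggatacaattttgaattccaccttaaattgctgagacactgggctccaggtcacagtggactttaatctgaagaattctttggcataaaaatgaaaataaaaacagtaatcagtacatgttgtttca
Aspn, chr13:49544193-49544442: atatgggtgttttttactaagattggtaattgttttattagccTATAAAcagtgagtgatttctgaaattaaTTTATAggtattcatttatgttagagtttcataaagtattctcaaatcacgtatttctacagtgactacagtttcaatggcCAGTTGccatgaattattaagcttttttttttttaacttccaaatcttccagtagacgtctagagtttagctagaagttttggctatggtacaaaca
Ogn, chr13:49607765-49608014: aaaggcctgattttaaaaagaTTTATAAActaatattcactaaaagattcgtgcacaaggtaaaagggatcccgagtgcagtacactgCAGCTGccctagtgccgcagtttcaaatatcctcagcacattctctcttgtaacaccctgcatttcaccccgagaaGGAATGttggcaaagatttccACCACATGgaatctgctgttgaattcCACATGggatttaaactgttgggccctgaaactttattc
Bgn, chrX:73483351-73483600: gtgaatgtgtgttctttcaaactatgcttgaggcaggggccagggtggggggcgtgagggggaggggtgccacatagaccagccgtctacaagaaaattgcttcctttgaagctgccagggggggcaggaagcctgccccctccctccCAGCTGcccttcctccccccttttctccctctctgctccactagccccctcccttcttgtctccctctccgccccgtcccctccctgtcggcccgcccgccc

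Over all 32851 windows of this length in the table, the TATA box letters occurred in 12.4%, the E-box in 66.2%, the AP-1 site in 6.75%, the RUNX site in 14.0%, the TEAD site in 12.6% and the SMAD box in 42.2%. Ogn held 4 of the 6 motifs: 2 overlapping matches to the TATA box letters far from the start, 3 to the E-box, 1 to the RUNX site, which overlaps an E-box, and 1 to the TEAD site. Aspn held 2 matches to the TATA box letters and 1 to the E-box, Bgn had 1 E-box, and Omd matched none of the 6. No motif was thus common to the 3 chromosome 13 windows. All 3 were poor in G and C, which made up 38.4% of the Omd window, 30.0% of that of Aspn and 42.0% of that of Ogn, below the median of 52.4% over all windows. The Bgn window had 64.4%, and the windows of Podn also lay above the median. Kera, on chromosome 10 and below the filter, had 42.4%, close to Ogn, and like Omd matched none of the 6 motifs. Prelp and Fmod, which also stood lower in rotated arrays, had 55.6% and 51.2%, near the median. A low share of G and C was thus not particular to the chromosome 13 genes. Its relation to the differences was not tested. A match describes letters in a window and says nothing of whether a factor binds there.

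The neighbours of these genes were read from the gene order in RefSeq. Cenpp, a centromere protein gene transcribed from the opposite strand, spans Ecm2, Aspn, Omd and Ogn, so these lie within it. Of its 3 probe sets, 1432361_a_at read 464.3, 886.4 and 804.9 in rotated 1, 2 and 3, against 1140.1, 1841.5 and 1527.8 in static 1, 2 and 3. The groups lay apart and the difference was -1.04 ± 0.27 (log2, SE; adjusted p 0.592 in limma). The others differed by -0.50 ± 0.21 and -0.02 ± 0.37. Ecm2, a leucine-rich repeat relative of the family just before Aspn, was below the filter in both of its probe sets. Probe set 1440096_at read 3.5, 0.9 and 2.3 in rotated arrays and 63.0, 35.6 and 25.3 in static arrays. Its difference was -1.41 ± 0.31 in a fit without the filter. The other, 1431324_at, stood at -0.17 ± 0.46 and overlapped between the groups. On the far side of Ogn, the nucleolar protein gene Nol8 had differences of 0.71, -0.35 and 0.45 over 3 probe sets, and Iars, an isoleucyl-tRNA synthetase gene, 0.48 in both of its probe sets.

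**Figure D4:**
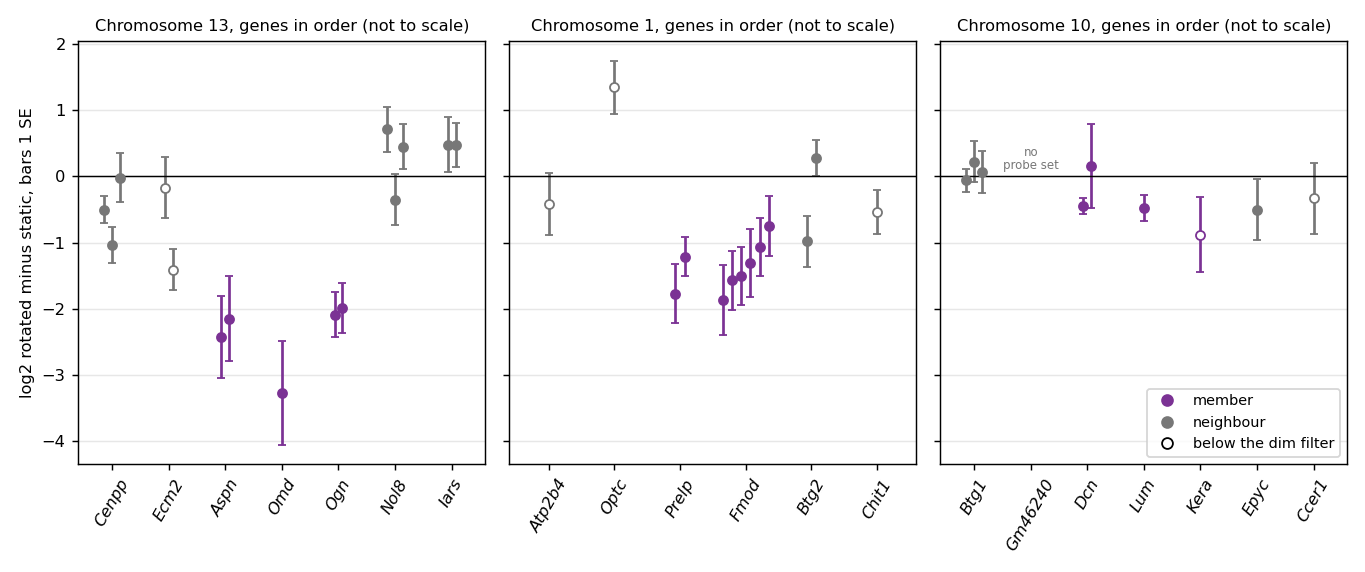
Log2 difference, rotated minus static, with bars of 1 SE, for members (purple) and their neighbours (grey) in RefSeq gene order on chromosomes 13, 1 and 10; open symbols are probe sets below the filter on dim probe sets. Aspn, Omd and Ogn lie at -1.99 or below, with Nol8 and Iars between -0.35 and 0.71 on the far side of Ogn. Cenpp, which spans the cluster, lies between -1.04 and -0.02, and Ecm2, below the filter, at -1.41 and -0.17.

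On chromosome 1, both Prelp and Fmod stood lower in rotated arrays. Prelp encodes a proline- and arginine-rich class II protein that links basement membranes to the underlying connective tissue. Its probe set 1416321_s_at read 708.4, 1637.2 and 934.9 in rotated 1, 2 and 3, against 2368.3, 3058.1 and 1940.0 in static 1, 2 and 3. The groups lay apart, and the difference was -1.21 ± 0.30 (log2, SE), a 2.31-fold lower level with an adjusted p of 0.571 in limma. The second, 1416322_at, read 113.4, 284.1 and 400.8 in rotated arrays, against 556.5, 1272.4 and 892.2 in static arrays. It also lay apart, with a difference of -1.77 ± 0.45 and an adjusted p of 0.574. With the actin covariate, 1416321_s_at stood at -0.91 and 1416322_at at -0.99.

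Fmod (fibromodulin) encodes a keratan sulfate proteoglycan that binds type I collagen and modulates fibril thickness. It has 6 probe sets, 5 of them of the type that can also bind related transcripts (suffix x_at). The remaining one, 1415939_at, read 65.3, 190.4 and 205.7 in rotated 1, 2 and 3, against 415.0, 656.0 and 346.1 in static 1, 2 and 3. The groups lay apart, with a difference of -1.57 ± 0.45 (log2, SE), or 2.97-fold lower, and an adjusted p of 0.592 in limma. The other 5 differed by -1.86, -1.50, -1.31, -1.06 and -0.75, and 3 of these had groups that lay apart. All 6 probe sets of Fmod were therefore lower in value. With the actin ratio as a covariate they lay between -1.07 and -0.42, 1415939_at at -0.77 and 1437685_x_at at -0.94. Without rotated 1 these last were -1.06 and -1.24. Next to this pair, Optc (opticin, a class III member of the eye) was below the filter and stood higher, at 1.35 ± 0.40, while Btg2, an antiproliferative gene, gave -0.98 and 0.28 in its 2 probe sets.

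Over the whole family, rotated and static values did not overlap, with rotated lower, in 12 of the 20 tested probe sets, against 7.29% of all tested probe sets. None had all rotated values higher, against 7.82%. On the deposited signals without normalization, 11 of the 20 lay apart with rotated lower, with no share over all probe sets taken on that scale. The difference between these counts comes from Lum, Dcn and Podn, where the scaling of the arrays decides whether the groups touch.

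Lum, Dcn and Bgn were bright and differed little. Dcn (decorin), with a single chondroitin or dermatan sulfate chain, limits the sideways fusion of collagen fibrils and binds TGF-beta. Its probe set 1449368_at read 37457.2, 26145.0 and 23276.0 in rotated 1, 2 and 3, against 35396.8, 31331.8 and 29354.5 in static 1, 2 and 3. The deposited signals overlapped because of rotated 1. The normalized difference was -0.44 ± 0.12 (log2, SE), or 1.35-fold lower, with no overlap and an adjusted p of 0.592 in limma. With median centring instead it was -0.03. Signals this bright lie near the top of the scale, where the array may respond less than in proportion, which was not tested.

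A second Dcn probe set, 1441506_at, stood higher in value in rotated arrays, the only one of the 21 to do so. It read 124.9, 105.1 and 68.4 in rotated 1, 2 and 3, against 36.4, 179.6 and 160.3 in static 1, 2 and 3. Static 1 alone was low, the difference was 0.16 ± 0.63 (log2, SE), and its sign turned to -0.67 without static 1 and to -0.11 on the values as deposited. No direction can be given for it.

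Lum (lumican), the keratan sulfate proteoglycan that orders collagen fibrils in the cornea and skin, read 11827.9, 6332.7 and 7938.0 in rotated 1, 2 and 3, against 9932.5, 10775.2 and 11651.8 in static 1, 2 and 3. Rotated 2 and 3 lay below every static array, while rotated 1 lay above them all before normalization. After normalization the difference was -0.48 ± 0.20 (log2, SE; adjusted p 0.603 in limma), and without rotated 1 it was -0.65. For Lum and Dcn rotated 1 was thus the highest of the rotated arrays, whereas for Omd and Aspn it was the lowest.

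Bgn (biglycan), which carries glycosaminoglycan chains at 2 sites and is abundant in bone matrix, had groups that overlapped in all of its probe sets. Probe set 1448323_a_at read 23743.3, 22600.5 and 24271.1 in rotated 1, 2 and 3, against 26256.5, 23189.5 and 25572.5 in static 1, 2 and 3. The differences were -0.31 ± 0.16, -0.29 ± 0.15 and -0.26 ± 0.18 (log2, SE), and with median centring they turned to 0.05, 0.06 and 0.08, so no direction can be given. The limit given for the bright signals of Dcn holds here too.

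Podn and Kera had weak signals, and Kera alone was below the filter. Podn (podocan), a class V protein of the vessel wall and kidney that limits smooth muscle cell growth, read 136.4, 94.3 and 187.2 in rotated 1, 2 and 3, against 226.4, 210.0 and 193.5 in static 1, 2 and 3. It differed by -0.47 ± 0.32 (log2, SE; adjusted p 0.668 in limma). All rotated signals were lower as deposited, but the normalized groups overlapped through rotated 3. Kera (keratocan), best known from the cornea and also made by osteoblasts, read 51.8, 7.8 and 3.2 in rotated arrays and 131.0, 48.6 and 10.9 in static arrays. Each rotated array was below its same-numbered static array, but the groups overlapped, and in a fit without the filter the difference was -0.88 ± 0.57 (adjusted p 0.754 in limma). Both group means lay below the filter's threshold of 5.96 on the log2 scale, so the size of the difference cannot be read as a fold.

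The 6 arrays were not alike in quality. The 3′ over 5′ signal ratio of the actin controls was 3.21 in rotated 1, 1.57 and 1.48 in rotated 2 and 3, and 1.29 to 1.37 in the static arrays. That of the transferrin receptor was 8.92, 2.73 and 2.67 in rotated 1, 2 and 3, against 1.62, 3.71 and 2.95 in static 1, 2 and 3. The ratio of GAPDH was 0.76 to 0.875 in rotated and 0.748 to 0.867 in static arrays. Rotated 1 was thus highest by all 3 controls, while the others were split between the groups by actin alone. Static 1 had the highest median signal, 130.1, against 70.0 to 88.8 in the others. All 21 member probe sets together averaged -1.69, -0.86 and -1.15 in rotated 1, 2 and 3, against -0.22, 0.51 and -0.29 in static 1, 2 and 3 (log2 deviation from the static mean). The array with the high actin ratio was thus lowest, and every rotated array lay below every static one. The median member difference was -1.0 without rotated 1 and -1.03 without rotated 1 and static 1 together. With the actin ratio as a covariate it was -0.85, that of Omd was -2.11, of Aspn -1.39 and -1.40, and of Ogn -1.86 and -1.33.

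Osteoblast markers were present, and their probe sets stood above the filter's threshold in 16 of 17 cases in both groups. Of the 16 tested, 8 were lower at an unadjusted p under 0.05 and 0 higher. Over all tested probe sets the shares were 3.9% lower and 4.34% higher, which also apply to the marker lists that follow. Among the 8 were the osteoblast factor gene Dlx5 (-1.08 ± 0.32), the cadherin gene Cdh11 (-0.51 ± 0.15) and the matrix protein gene Sparc (-0.70 ± 0.26). With the actin ratio as a covariate Dlx5 stood at -0.55, Cdh11 at -0.48 and Sparc at -0.22. The deposited signals of Sparc overlapped between the groups. The summed deposited signal of the osteoblast markers ranged from 82341 to 116595 in rotated arrays and from 117198 to 132260 in static arrays. These ranges did not overlap but nearly met. Such sums are not normalized, and the brightest probe sets weigh most in them. Of the tendon and fibroblast markers, 3 of 7 tested probe sets were lower at an unadjusted p under 0.05 and 0 higher. Their summed deposited signal ranged from 14140 to 17004 in rotated arrays and from 12960 to 20463 in static arrays, so here the ranges overlapped. Among them Tnmd (tenomodulin) read 35.4, 15.7 and 15.3 in rotated arrays, against 162.5, 138.4 and 72.1 in static arrays. Its rotated mean (5.32 on the log2 scale) lay below the filter's threshold. The marker gene Pdgfra stood at -0.76 ± 0.22, with groups that lay apart, while the fibroblast marker gene Thy1 stood at 0.36 ± 0.24. Of the adipocyte markers, 1 of 7 tested probe sets was lower at an unadjusted p under 0.05, that of Fabp4 (-0.59 ± 0.23), and 0 higher. Cartilage, blood, muscle and endothelial markers had none past an unadjusted p under 0.05 in either direction. The filter kept 7 of 9 cartilage probe sets, 7 of 9 blood, 3 of 7 muscle and 1 of 6 endothelial ones. Below it in all their probe sets were only Col10a1 of the cartilage and only Ptprc of the blood markers. The same held for Myod1 and Myog of muscle and for Pecam1, Cdh5, Tek and Vwf of endothelium. In bulk RNA, fewer cells of a type and less RNA per cell cannot be told apart, and the part of either in these results was not tested.

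The collagens to which these proteoglycans bind were lower in 14 of 22 tested probe sets at an unadjusted p under 0.05 and higher in 0, with a median difference of -0.63. At that threshold 3.9% of all tested probe sets were lower and 4.34% higher. Col6a2 and Col6a1, chains of the type VI collagen around cells, stood at -1.11 ± 0.27 and -0.96 ± 0.26, and Col11a1, a chain that starts fibrils, at -1.92 ± 0.53, with a rotated mean (5.53) below the filter's threshold. With the actin ratio as a covariate these 3 stood at -0.67, -0.45 and -1.28. The summed deposited collagen signal ranged from 78328 to 105655 in rotated arrays and from 111421 to 132038 in static arrays, without overlap. This sum too was not normalized and rests mostly on the brightest probe sets. Of the enzymes that cut the family's proteins or help to process their partners, 5 of 18 tested probe sets were lower at an unadjusted p under 0.05 and 0 higher. They included the proteoglycan-degrading Adamts5 (-1.23 ± 0.30), the procollagen C-proteinase enhancer Pcolce (-0.87 ± 0.25) and the gelatinase Mmp2 (-0.46 ± 0.21). With the covariate they stood at -1.28, -0.41 and -0.27. None of these passed at an adjusted p under 0.05 in limma (0.564 to 0.606 for the 6 genes named). Several of them, like the family itself, were already known from these data to be lower when the lists were drawn up.

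Few genes that build the sugar chains were past an unadjusted p under 0.05, where all tested probe sets had 3.9% lower and 4.34% higher. For the linkage region shared by all the chains, 0 of 16 tested probe sets had an unadjusted p under 0.05, and the median difference was -0.14. For chondroitin and dermatan sulfate synthesis, 1 of 18 was lower and 0 higher at that threshold, the lower one being the chain-starting enzyme gene Csgalnact1 (-0.68 ± 0.27). Of 9 probe sets for keratan sulfate synthesis, 1 was lower at that threshold, the chain-extending B3gnt2 (-0.84 ± 0.34), and 1 higher, the sulfotransferase gene Chst5 (0.89 ± 0.38). Whether these lists differ from the proteoglycans was not tested. Of the other proteoglycans of the cell surface and matrix, 7 of 40 tested probe sets were lower and 1 higher at an unadjusted p under 0.05, with a median of -0.24 over all 40. Examples are Sdc2, a syndecan of osteoblasts (-1.19 ± 0.38), Esm1 (-0.91 ± 0.24) and the glypican gene Gpc6 (-0.88 ± 0.24). With the actin ratio as a covariate they stood at -0.45, -0.69 and -0.99, and the rotated signal of Sdc2 was 27.7%, 49.4% and 61.7% of the static one in the 3 pairs.

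**Figure D5:**
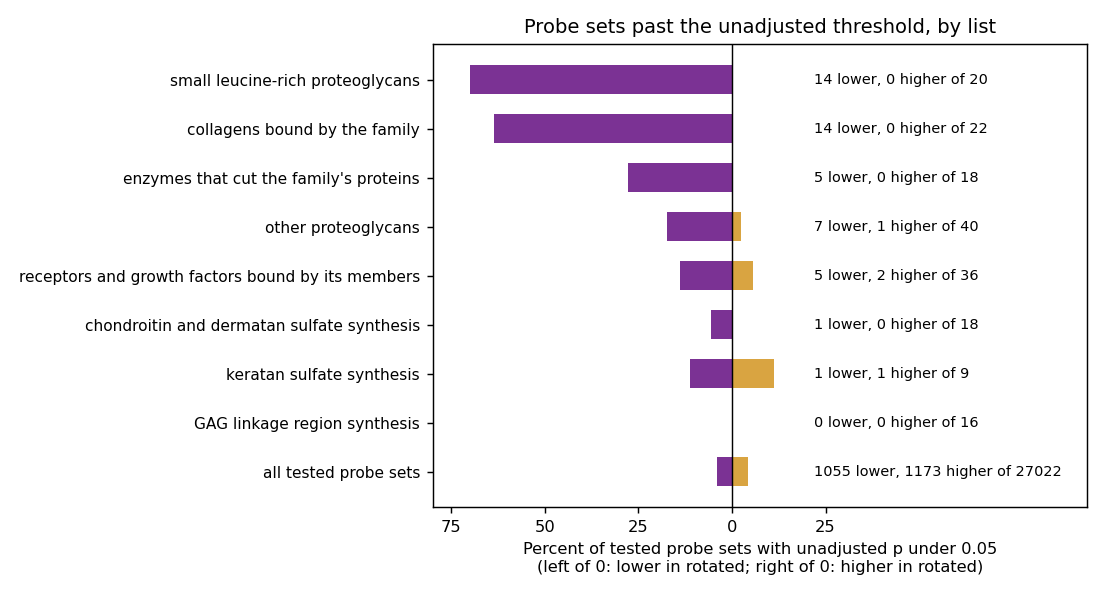
Percent of tested probe sets with an unadjusted p under 0.05, lower (left of 0) and higher (right of 0) in rotated arrays, for the proteoglycan family, related lists and all tested probe sets. The family (14 of 20) and its collagens (14 of 22) reach furthest to the left, while each sugar chain list holds at most 1 probe set on either side. Several probe sets can belong to 1 gene, so these are not counts of genes.

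Among receptors and growth factors that the family's proteins bind, 5 of 36 tested probe sets were lower and 2 higher at an unadjusted p under 0.05. The shares over all tested probe sets were 3.9% and 4.34%. Bmp4, a bone morphogenetic protein bound by biglycan, stood at -1.45 ± 0.21 (adjusted p 0.30 in limma) and the EGF receptor gene Egfr at -0.95 ± 0.34. Met, a receptor that decorin holds back, went the other way at 1.61 ± 0.35 (adjusted p 0.492 in limma), with signals of 250.1, 233.7 and 210.6 in rotated arrays, against 65.1, 71.8 and 83.2 in static arrays. The other leucine-rich proteoglycans, 8 of 10 listed genes with a probe set, were mostly too dim: 3 of their 9 probe sets were tested. These belong to Chadl (0.75 ± 0.41), Epyc (-0.50 ± 0.46) and Nyx (-0.24 ± 0.42), and each overlapped between the groups.

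The array profile of the family was last compared with that of other genes. Profiles of the 20 tested member probe sets were standardised and averaged, and Pearson's r of this mean with each of 23099 other named probe sets was taken over the 6 arrays. The closest were Olfml3 (0.998), a secreted olfactomedin-like matrix protein, Ip6k1 (0.996), an inositol phosphate kinase, Per3 (0.995), a clock gene, Negr1 (0.995), a neuronal adhesion protein, and Fzd2 (0.993), a Wnt receptor. Olfml3 read 2071.5, 3025.5 and 3117.9 in rotated 1, 2 and 3, against 4419.4, 7558.3 and 5492.5 in static 1, 2 and 3, and differed by -1.12 ± 0.23. Among the members, r with the family mean ran from 0.977 for Prelp 1416322_at down to 0.467 for Lum and 0.0524 for Dcn 1441506_at. With 6 arrays that share scaling and replicate numbers, so many candidates give high values readily, and these are descriptions.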

How the data were processed

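RNA of 3 rotated and 3 static samples was measured on 1-colour arrays. The authors deposited linear intensity values, 1 for each probe set on each array. Each array had been scaled, since its mean without the outer 2% at either end was 500.0. Which software summarised the probes is not given in the sources used here. The number of arrays limits precision. The members, gene lists, tests and alternatives were all chosen with earlier results of these data known.

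An offset of 16.6, the 20th percentile over the table, was added before log2, and arrays were quantile normalized, since array medians differed by 85.9%. Fold changes are on this scale, which understates changes of dim probe sets. The 64 control probe sets and those with a mean below the 40th percentile were left out, and 27022 were tested. Symbols came from the platform's probe table, updated through RefSeq gene identifiers, which gave 1 symbol to 34945 of the 45037 non-control probe sets, several to 932 and none to 9160. Named genes are all member probe sets, up to 3 genes per list by smallest p, genes next to members, and the 5 most similar profiles; a few marker genes and single probe sets were named after their values were seen.

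Rotated and static arrays were tested two-sided by limma (version 3.58.1, R 4.3.3), its variances moderated with an intensity trend, with Benjamini-Hochberg adjustment over all tested probe sets. Deviations from group means correlated at 0.196, 0.313 and 0.334 for same-numbered rotated and static arrays and between -0.186 and -0.094 otherwise. Each same-numbered value was over 0.1, so the numbers were taken to pair the samples, though no label explains the numbers. The pairing thus comes from the same data that the block fit tested. The fit was tested on simulated data before use. At an adjusted p under 0.05 in limma it recovered 10.2% of simulated 2-fold changes and 68.9% of 4-fold ones. A probe set that did not pass can therefore not be read as unchanged. Alternatives changed the normalization, offset, filter, variance model, array weights, block, actin covariate and arrays used.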

Additional observations from a re-analysis of the deposited data

How the results depend on the processing

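Of 356 values of the 20 tested member probe sets under 18 alternatives, 347 kept their direction and their side of the adjusted threshold. With the replicate block, 2 probe sets passed among all those tested and 2 among the members, the same ones: Ogn 1419663_at at -2.09 and Aspn 1448421_s_at at -2.15 (each adjusted p 0.0251 in limma). The block changed no other call. With array weights 22 probe sets passed, among them 0 member probe sets. The weights were 3.32 for static 3 and 2.55 for rotated 2, against 0.35 to 1.01 for the others. Median centring turned the Bgn probe sets to 0.08, 0.06 and 0.05, and under it 17 of the 21 member probe sets were lower. Dcn 1441506_at turned to -0.11 on the values as deposited, -0.43 with array weights and -0.79 without static 1 and rotated 1 together, and ranged from -0.67 to 0.62 with each sample left out in turn. The cause of these changes was not tested. The median member difference stayed between -1.51 (offset of 1) and -0.85 (actin covariate) throughout. Of the tested member probe sets, 6 (actin covariate), 8 (array weights) or 10 to 12 (all others) stood at -1 or below. At an unadjusted p under 0.05, limma found 1173 probe sets higher and 1055 lower, but 925 higher and 432 lower with median centring, which moved the median of all tested probe sets to 0.10. Member probe sets lower at that threshold numbered 8 (actin covariate) to 16 (array weights). In these 2 fits, 381 and 2416 of all tested probe sets were lower. Among all probe sets the lower count was 588 without rotated 1, 1754 without rotated 3 and 654 without static 3. Kera is limited by its weak signal.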

Other observations

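The neighbours of the members that lie alone were read in the same way. Beside Bgn on the X chromosome, Haus7, a spindle protein gene, had groups that lay apart at -0.77 ± 0.27 (log2 rotated minus static, SE; adjusted p 0.592 in limma). Beside Podn on chromosome 4, the 4 probe sets of the sterol carrier gene Scp2 differed by 0.03 to 0.23 and those of the fatty acid enzyme gene Cpt2 by -0.28 and 0.03. Btg1, the first neighbour listed beside Dcn on chromosome 10, stood at -0.06, 0.22 and 0.07.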
